A study of Homo sapiens with 10 samples.

Results

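Cadherins are calcium-dependent adhesion receptors, and their genes were followed here in U2OS cells, a human osteosarcoma line that keeps wild-type p53. The genes were chosen by symbol alone: CDH with a number, DSG1 to DSG4, DSC1 to DSC3, and PCDH followed by a number or by the letters A, B or G of the 3 protocadherin clusters. This took 94 of the 26040 symbols in the deposited table, and 74 of the 94 reached 10 in 3 or more of the 10 libraries. Those 74 were 4 type I and 9 type II classical cadherins, 2 other CDH genes, 2 desmosomal cadherins, 8 nonclustered protocadherins, and 14 alpha, 15 beta and 20 gamma protocadherins. Values are scaled fragments, the authors' estimated fragment number per gene after a scaling of each library.

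There were 3 libraries of cells with 1 of 3 shRNAs against ARVCF and 10 µM nutlin-3a for 24 h, 3 of the same shARVCF lines left untreated, 3 of cells with a negative control shRNA and the same nutlin-3a dose, and 1 of that control line untreated. All cells carried a lentiviral shRNA and had been selected in puromycin at 1 µg/ml. According to the labels each treated line was a single clone. They also describe puromycin-selected resistant cells, so whether a line was a clone or a pool is not clear. The replicate number of a shARVCF library thus stands for a shRNA and its clone or pool at once, and these cannot be told apart. All control libraries came from 1 line. Treated control libraries 2 and 3 carry later library numbers than the other 8 libraries, from which a second library series was inferred, and no label names such a series. Nothing in the labels gives separate cultures of a line, so p-values reflect only how these libraries vary, and that variation may be technical.

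Classical cadherins join neighbouring cells through the outermost of their extracellular repeats and hold catenins with their cytoplasmic tails. Beta-catenin or plakoglobin binds the end of the tail, and p120-catenin or its relative ARVCF, the gene targeted here, binds near the membrane and keeps the cadherin at the cell surface. Desmosomal cadherins pair with plakoglobin, plakophilins and desmoplakin and so link to intermediate filaments. Protocadherins lack the catenin-binding tail. The clustered ones are transcribed from many alternative first exons in a row on chromosome 5, each with its own promoter, and in neurons the set that is switched on gives a cell its identity. Nutlin-3a blocks the binding of MDM2 to p53 and thereby stabilises p53.

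The libraries held 17821751 to 19903778 scaled fragments, or an estimated 15073578 to 21096205 fragments before scaling. ARVCF stood at 1284, 1188 and 1232 scaled fragments in treated shARVCF lines and 2928, 2571 and 2376 in treated control libraries. Without drug it read 291.8, 343.2 and 338.0 in the shARVCF lines against 617.7 in the control line, so mRNA of the target was reduced but present. Of 10 mesenchymal and osteoblast markers, VIM (27690 to 59680), SPARC (30630 to 48420), COL1A1 (41170 to 96680) and RUNX2 (328.4 to 1444) were high in every library. TWIST1 was at 0 in all 10 libraries, SP7 reached 1.9, BGLAP 4.771 and COL1A2 15.54. Among 10 epithelial markers, GRHL2 was at 0 throughout and KRT8 and KRT18 read 4531 to 12640 and 4204 to 15290. The epithelial list summed to 9088 to 14390 in treated shARVCF lines, 9759 to 13370 in untreated shARVCF lines, 26980 to 27900 in treated control libraries and 12260 in the untreated one. Endothelial markers summed to 45.27 to 131.0.

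The cadherin family did not move together with nutlin-3a, and the balance of higher and lower members differed between the kinds of line. Among shARVCF lines 21 of 74 members passed an adjusted p of 0.05 by limma (13 higher and 8 lower, or 17.6% and 10.8%), where 42.8% of all 14955 tested genes were called (21% higher and 21.7% lower). In the control line 39 members were called, 7 higher (9.46%) and 32 lower (43.2%), where 57.1% of all genes were called (25.1% higher and 32% lower). Between shARVCF and control lines under nutlin-3a, 42 members were called, 40 higher (54.1%) and 2 lower (2.7%), where 58.4% of all genes were called (32.3% higher and 26.1% lower). The share of members called in either direction was thus below the share of all genes in each of these comparisons, and the split by direction was uneven in both comparisons that hold the treated control libraries.

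Members were also counted by whether the libraries of the groups overlapped. In the shARVCF lines 21 members had all treated above all untreated libraries and 7 all below, where 26.5% and 28.4% of all genes did. In the control line 8 lay above and 53 below the 1 untreated library, where 39.9% and 46.1% of all genes did. Under nutlin-3a 45 members had all shARVCF above all control libraries and 1 all below, where 34.8% and 29.3% of all genes did.

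Median log2 changes of the 74 members were 0.26 in the shARVCF lines, -1.04 in the control line and 0.98 between the kinds of line under nutlin-3a. Over all tested genes the same medians were 0.00, -0.10 and 0.06. In the control line the median of all genes moved to 0.04 with upper-quartile factors, a shift of over 0.1. It is small beside the member median there, but not beside every single member's value. The change of a gene also went with its spliced length in the comparisons that include the treated control libraries, with Spearman's rho of -0.43 in the control line, 0.58 between kinds of line under nutlin-3a and -0.03 in the shARVCF lines (14758 genes, which are not independent replicates). Member transcripts are long, so many of the values that turn on those libraries are given again below after the trend of each library with spliced length and GC content was removed. Whether this trend came from the RNA, the library preparation or the cells was not tested.

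Corrected for that trend, the shARVCF lines had 25 called members, of which 17 were higher and 8 lower, against 45.1% of all genes. In the control line 9 were higher and 16 lower (12.2% and 21.6%), where 28.7% and 21.1% of all genes were, or 49.8% in either direction. Between the kinds of line under nutlin-3a, 22 were higher and 5 lower (29.7% and 6.76%), where 15.9% of all genes were higher and 23% lower. The share of members lower in the control line was therefore close to the background once the trend was removed. The share of members higher in treated shARVCF lines stayed above the background, at 29.7% against 15.9%, where it was 54.1% against 32.3% as deposited.

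**Figure D1:**
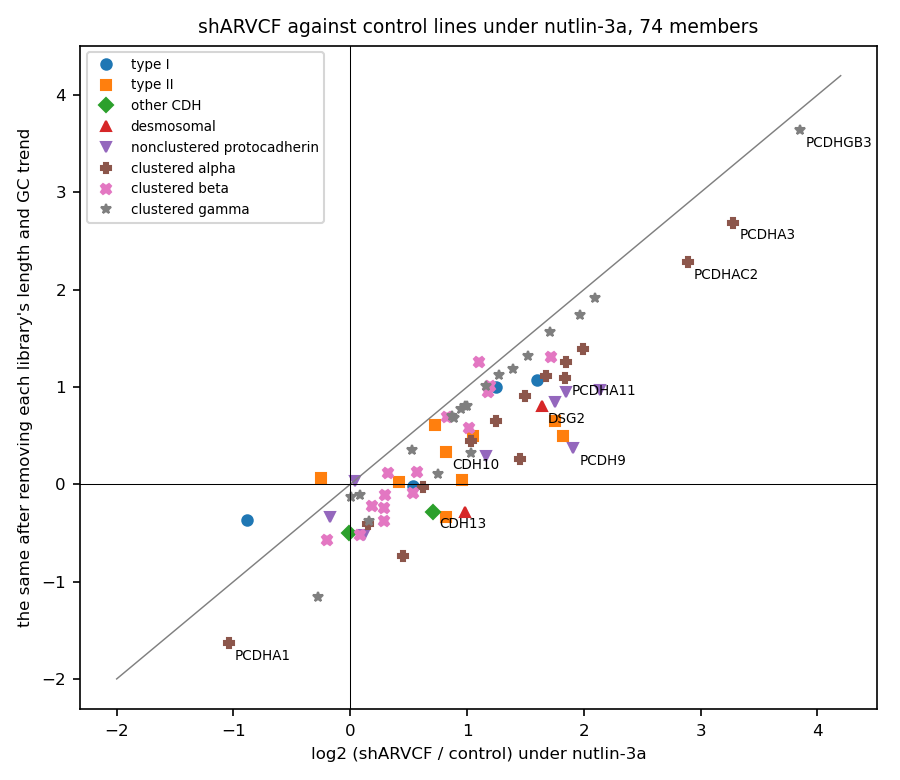
Log2 ratio of shARVCF to control lines under nutlin-3a for 74 members (3 libraries each), on the x axis from the values as deposited and on the y axis after removal of the dependence on spliced length and GC in each library, with 1 marker per gene and a colour per subfamily. Points lie mostly below the diagonal, with CDH13 at 0.71 on x and -0.28 on y and PCDHGB3 at 3.85 on x and 3.64 on y.

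Members called in both kinds of line went the same way with 1 exception. CDH10, CDH13, CDH15, PCDH7, PCDH17, PCDHGC3 and PCDHGC5 were higher with nutlin-3a in both, and CDH6, CDH12, CDH18, CDH24, PCDH18, PCDH19 and PCDHB5 were lower in both. PCDHA11 was higher in the shARVCF lines and lower in the control line. CDH7, PCDH15, PCDH19 and PCDHA8 passed the filter mainly through the group where they were high, which favours a call, so they enter these counts but no test of them is given. A further 24 members were lower in the control line and not called in the shARVCF lines, 5 were higher in the shARVCF lines without a call in the control line, PCDH1 was called as lower in the shARVCF lines, and 29 were called in neither. How all tested genes divide over these combinations was not counted, so none of these counts is read as a trait of the family. A call in 1 kind of line is not by itself a difference between them, and the difference of the effects was tested in the same model. It was called for 25 members, all with the more positive effect in the shARVCF lines, where 31.8% of all genes were called (19.3% with the more positive effect there and 12.5% with the less positive one). Once length and GC were accounted for, 7 of the 25 were still called, where 13.5% of all genes were called (5.29% more positive and 8.22% less positive in the shARVCF lines).

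**Figure D2:**
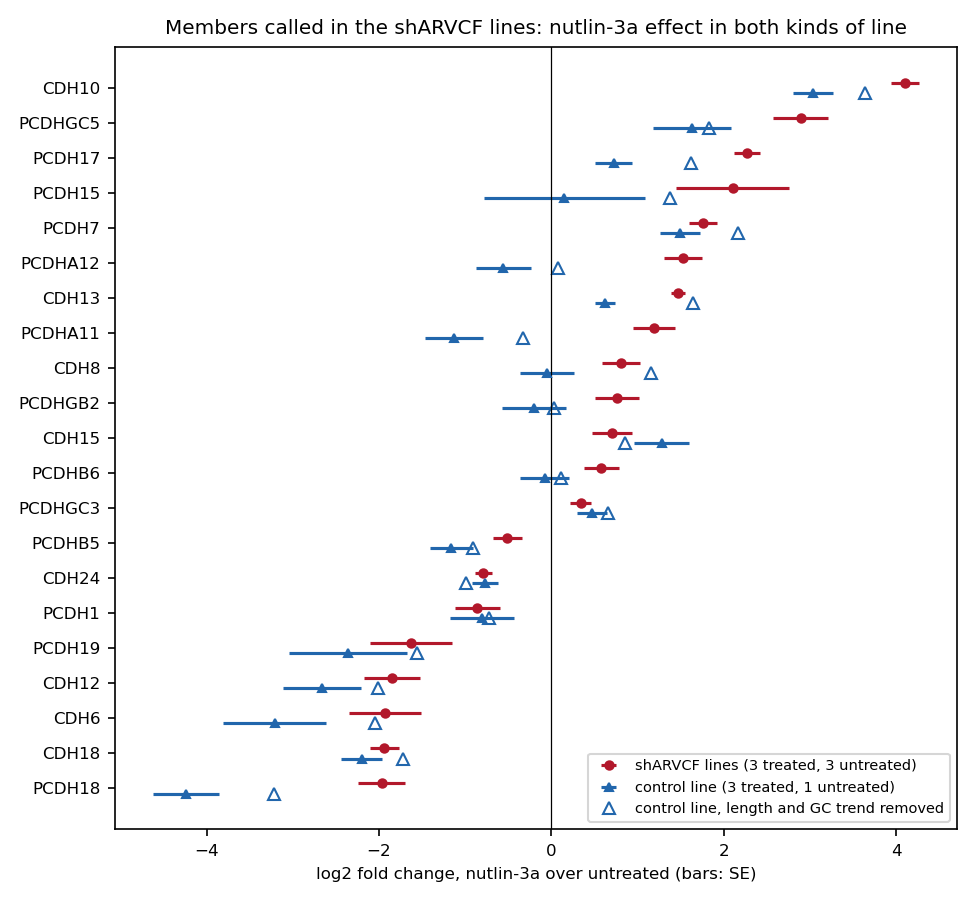
Log2 fold change of nutlin-3a over untreated for the 21 members with a shARVCF call, with circles for the shARVCF lines (3 treated and 3 untreated libraries), filled triangles for the control line (3 treated and 1 untreated), open triangles for the control line with the correction for length and GC, and bars for the standard error. CDH10 lies farthest to the right in both kinds of line (4.10 and 3.03), and PCDH18 has the lowest control value (-4.24). PCDH15 and PCDH19 passed the filter mainly through the group where they were high, which favours a call.

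Per kilobase of the longest annotated transcript, the most abundant members in the untreated control library were PCDHB5 (761 scaled fragments per kb), CDH2 (726), PCDHGC3 (435), DSG2 (411), CDH24 (341), CDH11 (225) and CDH13 (223). The same 7 led in the untreated shARVCF lines, with CDH2 at 634, PCDHB5 at 612 and PCDHGC3 at 482. In treated shARVCF lines CDH2 (722), PCDHGC3 (608) and CDH13 (560) stood first, and in treated control libraries PCDHGC3 (608), CDH2 (496) and PCDHB5 (344). The longest annotated transcript need not be the mRNA of these cells, which limits any ranking by length.

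Among type I cadherins, N-cadherin (CDH2, chr18:27950966-28177446, minus strand, 16 exons), which mesenchymal cells and neurons use, was the main mRNA. CDH2 read 2938, 2991 and 3453 scaled fragments in the treated shARVCF lines, 2732, 2758 and 2755 in the untreated shARVCF lines, 2065, 2128 and 2257 in the treated control libraries and 3144 in the untreated one. Treated shARVCF libraries all lay above the treated control libraries, and the control line fell with nutlin-3a in 3 of 3 libraries (log2 -0.55, SE 0.12, limma adjusted p = 0.00218), while in the shARVCF lines the value was log2 0.18, adjusted p = 0.113. The ratio of kinds of line under nutlin-3a was log2 0.54, SE 0.09, limma adjusted p = 0.000196. Corrected for length and GC, the control change was log2 0.09 and the ratio log2 -0.02, so neither call held, and the change in the shARVCF lines was then called at log2 0.28 (adjusted p = 0.0177).

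R-cadherin (CDH4, chr20:61252426-61940617, plus strand, 16 exons), was first known from retina. CDH4 stood at 391.6, 360.8 and 602.3 scaled fragments in shARVCF lines 1, 2 and 3 with nutlin-3a against 327, 273.6 and 457.1 without it, and at 170.5, 180.3 and 203.3 in the control line with nutlin-3a against 355.4 without it. All 3 treated control libraries lay below every other library, and the control line fell (log2 -0.94, SE 0.30, limma adjusted p = 0.0188). Treated shARVCF lines held more than treated control libraries (log2 1.25, SE 0.22, limma adjusted p = 0.000343), and this stayed called after the trend was removed (log2 1.00, adjusted p = 0.00421), though the fall in the control line did not (log2 -0.66, adjusted p = 0.104). M-cadherin (CDH15, chr16:89171767-89195492, plus strand, 14 exons), a cadherin of muscle precursors, went the other way between the kinds of line. For CDH15, the values were 52.95, 63.83 and 78.85 scaled fragments in treated and 48.25, 33.34 and 37.38 in untreated shARVCF lines, beside 117.3, 112 and 128.2 in treated and 48.43 in untreated control cells. It rose in the shARVCF lines (log2 0.70, SE 0.23, limma adjusted p = 0.0243) and in the control line (log2 1.28, SE 0.32, limma adjusted p = 0.00434), and every treated shARVCF library lay below every treated control library (log2 -0.88, SE 0.23, limma adjusted p = 0.0051). The CDH15 call in the shARVCF lines was lost without treated shARVCF line 2 or 3 or untreated shARVCF line 2 or 3 (log2 0.56 to 0.71, adjusted p up to 0.099). After correction the control rise of log2 0.85 missed the threshold (adjusted p = 0.0523), and so did the ratio of log2 -0.37 (adjusted p = 0.245). E-cadherin (CDH1), the epithelial type I cadherin, was low and uneven. It read 17.49, 17.58 and 34.69 scaled fragments in treated and 9.828, 8.824 and 15.29 in untreated shARVCF lines, and 2.312, 32.61 and 2.99 in treated against 14.52 in untreated control cells. Treated control library 2 thus stood far above the other 2, and with all libraries CDH1 had no call (log2 1.60 between kinds of line under nutlin-3a, adjusted p = 0.0879). Without that library the ratio was log2 2.67 and the control change -2.09, and in the first library series alone they were 2.8 and -2.23. The library was singled out by the value under test, so these fits carry no test of CDH1.

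The type II gene with the largest change in the shARVCF lines was CDH10 (chr5:24487100-24644978, minus strand, 12 exons), a cadherin known mainly from brain. CDH10 stood at 560.5, 511.6 and 591.9 scaled fragments in shARVCF lines 1, 2 and 3 with nutlin-3a against 28.59, 28.43 and 38.23 without it, and at 315.9, 294.9 and 332.8 in the control line with nutlin-3a against 37.46 without it. Every treated library lay above every untreated one, and treated shARVCF lines lay above treated control libraries. CDH10 rose 17.1-fold in the shARVCF lines (log2 4.10, SE 0.16, limma adjusted p = 2.81e-09) and, in the control line, 8.19-fold (log2 3.03, SE 0.23, limma adjusted p = 4.65e-07), in 3 of 3 lines and 3 of 3 control libraries. With the trend removed the rises were log2 4.28 and 3.64. The ratio of kinds of line under nutlin-3a (log2 0.82, SE 0.16, limma adjusted p = 0.000913) then dropped to log2 0.33 (adjusted p = 0.136).

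CDH10 lies between genes that went down. On the short arm of chromosome 5 the order by position is CDH18, CDH12, CDH10, CDH9 and CDH6, of which CDH9 was below the filter. CDH18 read 93.12, 131.4 and 126.4 scaled fragments in the treated shARVCF lines, 397.6, 474.6 and 474.1 in the untreated shARVCF lines, 76.21, 96.59 and 86.76 in the treated control libraries and 399.3 in the untreated one. CDH12 read 162.5, 147 and 70.42 scaled fragments in the treated shARVCF lines, 527, 493.8 and 305.8 in the untreated shARVCF lines, 44.72, 63.1 and 65.25 in the treated control libraries and 366.1 in the untreated one. Treated libraries of both genes lay below all untreated libraries, in each kind of line. CDH18 (chr5:19472951-20575873, minus strand, 15 exons) fell in the shARVCF lines (log2 -1.94, SE 0.17, limma adjusted p = 1.85e-06) and in the control line (log2 -2.20, SE 0.24, limma adjusted p = 9.92e-06), and CDH12 (chr5:21750673-22853622, minus strand, 15 exons) did so as well (log2 -1.85, SE 0.32, limma adjusted p = 0.000634, and log2 -2.66, SE 0.45, limma adjusted p = 0.000365). Both are neuronal type II cadherins. The falls stayed called with the trend removed, at log2 -1.84 and -1.72 for CDH18 and -1.72 and -2.01 for CDH12.

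The fourth measured gene of that stretch, CDH6 (chr5:31193750-31329146, plus strand, 12 exons), is the kidney cadherin. CDH6 stood at 14.61, 15.73 and 32.3 scaled fragments in shARVCF lines 1, 2 and 3 with nutlin-3a against 56.29, 91.19 and 90.91 without it, and at 6.016, 8.072 and 2.59 in the control line with nutlin-3a against 55.74 without it. Every treated library lay below every untreated one (log2 -1.93, SE 0.42, limma adjusted p = 0.0028 in the shARVCF lines, and log2 -3.21, SE 0.60, limma adjusted p = 0.00061 in the control line). Treated shARVCF lines held more than treated control libraries for CDH6 (log2 1.75, adjusted p = 0.00354) and CDH12 (log2 1.05, adjusted p = 0.0135), but with the trend removed neither ratio was called (log2 0.65 and 0.50). The CDH12 call between kinds of line under nutlin-3a was lost without treated shARVCF line 1 or 2 or treated control library 1 (log2 0.83 to 0.90, adjusted p up to 0.0632). For CDH18 the ratio was log2 0.42, adjusted p = 0.0517, and its groups overlapped in part of their range. Within the 3 shARVCF lines CDH12 read lowest in line 3 in both states, whereas CDH6 read highest there with nutlin-3a.

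To show the regions where transcription of these neighbours starts, the 250 bases before the RefSeq start (the most upstream one where several are listed) are printed on the gene's strand in build GRCh38.p14. Capitals mark CNNG with A or T at both inner places, the core letters of a p53 half-site, which 93.0% of 27305 promoters of this kind hold.

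CDH10 (chr5:24644979-24645228, minus strand): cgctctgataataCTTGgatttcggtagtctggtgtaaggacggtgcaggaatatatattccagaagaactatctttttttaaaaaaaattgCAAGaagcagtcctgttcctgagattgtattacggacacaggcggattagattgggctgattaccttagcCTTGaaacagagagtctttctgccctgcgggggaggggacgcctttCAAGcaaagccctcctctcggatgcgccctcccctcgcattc

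CDH12 (chr5:22853345-22853594, minus strand): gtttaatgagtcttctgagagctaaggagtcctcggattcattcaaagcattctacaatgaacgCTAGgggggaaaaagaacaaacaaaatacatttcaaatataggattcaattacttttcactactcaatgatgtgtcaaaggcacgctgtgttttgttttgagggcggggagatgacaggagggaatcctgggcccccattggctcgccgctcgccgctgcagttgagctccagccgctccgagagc

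CDH18 (chr5:20575714-20575963, minus strand): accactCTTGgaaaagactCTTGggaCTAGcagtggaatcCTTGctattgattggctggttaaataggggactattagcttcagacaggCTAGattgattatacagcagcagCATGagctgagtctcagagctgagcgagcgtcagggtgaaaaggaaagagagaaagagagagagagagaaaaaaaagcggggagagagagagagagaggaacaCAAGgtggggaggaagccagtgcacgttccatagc

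CDH10, which rose, holds 4 such cores, CDH12 1 and CDH18 7. The full p53 half-site was found in none of these windows. Among 74 members with a promoter entry (of which 62 were measured), 5 hold it (6.76%, namely CDH8, DSC3, DSG3, PCDHGA3 and PCDHGA11), against 5.53% of all promoters, searched on both strands. These letters describe the sequence in the window and carry no statement about binding.

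**Figure D3:**
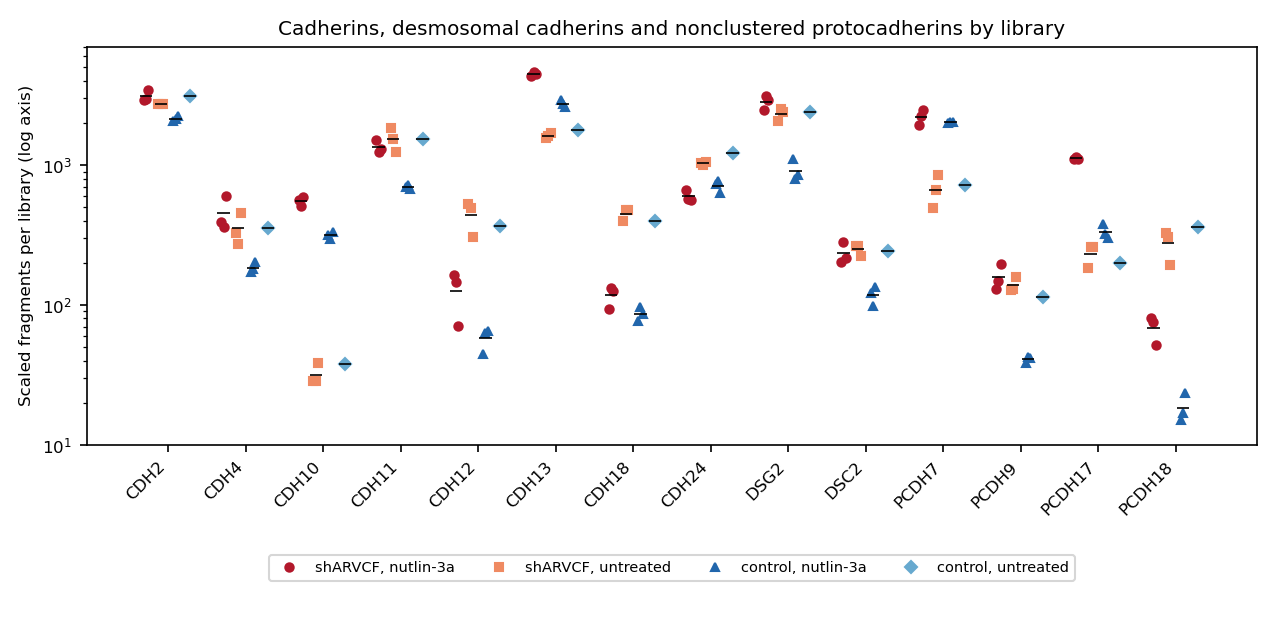
Scaled fragments per library on a log axis for cadherins, desmosomal cadherins and nonclustered protocadherins, with 1 marker per library and the groups side by side for each gene (shARVCF with nutlin-3a, shARVCF untreated, control with nutlin-3a, control untreated). CDH10 separates by treatment (511.6 to 591.9 and 294.9 to 332.8 with nutlin-3a, against 28.43 to 38.23 untreated), and DSG2 separates treated control libraries (799.7 to 1098) from all others (2071 to 3138).

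OB-cadherin (CDH11, chr16:64943753-65126112, minus strand, 14 exons), the type II cadherin of osteoblasts and mesenchyme, separated the treated control libraries from the rest. CDH11 read 1510, 1238 and 1304 scaled fragments in the treated shARVCF lines, 1839, 1533 and 1245 in the untreated shARVCF lines, 692.9, 716 and 670.8 in the treated control libraries and 1549 in the untreated one. The 3 treated control libraries stood below all others, and the control line fell (log2 -1.16, SE 0.19, limma adjusted p = 0.000189) while the shARVCF lines gave log2 -0.18, adjusted p = 0.31. The difference of these effects was log2 0.98, SE 0.23, limma adjusted p = 0.00614. It vanished with the trend removed (log2 0.09, adjusted p = 0.849), as did the control fall (log2 -0.18) and the ratio under nutlin-3a (log2 0.04, against 0.96 as deposited). CDH24 (chr14:23047062-23057538, minus strand, 14 exons), another type II cadherin, fell in both kinds of line. For CDH24, the values were 661.9, 574.5 and 561.5 scaled fragments in treated and 1040, 994.2 and 1060 in untreated shARVCF lines, beside 734, 771.4 and 635.8 in treated and 1212 in untreated control cells. All treated libraries lay below all untreated ones, with falls of log2 -0.79, SE 0.10, limma adjusted p = 6.65e-05 in the shARVCF lines and log2 -0.77, SE 0.15, limma adjusted p = 0.000774 in the control line, and the trend-removed values were log2 -0.82 and -0.99.

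CDH8 (chr16:61647242-62037035, minus strand, 12 exons), a neuronal cadherin, rose in each shARVCF line. CDH8 stood at 68.47, 74.12 and 88.22 scaled fragments in shARVCF lines 1, 2 and 3 with nutlin-3a against 37.74, 44.12 and 48.43 without it, and at 47.13, 43.79 and 38.38 in the control line with nutlin-3a against 44.64 without it. The rise was log2 0.81, SE 0.22, limma adjusted p = 0.0106, and in the control line the untreated library lay among the treated ones, with no call (log2 -0.05). After the trend was removed the control change became log2 1.15 (adjusted p = 0.00936), and the ratio under nutlin-3a turned to log2 -0.34 where it had been 0.82. For CDH7, the values were 8.216, 17.58 and 12.35 scaled fragments in treated and 12.51, 13.73 and 10.2 in untreated shARVCF lines, beside 3.008, 2.576 and 2.59 in treated and 7.31 in untreated control cells. CDH7, also neuronal, was near the filter and reached 10 in shARVCF libraries alone, and treated shARVCF lines lay above treated control libraries. VE-cadherin (CDH5), the endothelial junction cadherin, ranged over 5.151 to 32.36 scaled fragments with no call, in libraries whose endothelial marker sums were also low.

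T-cadherin (CDH13, chr16:82626803-83800640, plus strand, 14 exons) is held in the membrane by a lipid anchor, has no cytoplasmic tail and binds adiponectin. CDH13 stood at 4355, 4655 and 4492 scaled fragments in shARVCF lines 1, 2 and 3 with nutlin-3a against 1564, 1620 and 1699 without it, and at 2923, 2756 and 2599 in the control line with nutlin-3a against 1796 without it. Every treated library was above every untreated library, and the spread within groups was small. The rise was 2.77-fold in the shARVCF lines (log2 1.47, SE 0.08, limma adjusted p = 3.28e-08) and, in the control line, 1.53-fold (log2 0.62, SE 0.12, limma adjusted p = 0.000649). With the trend removed the rises were log2 1.52 and 1.64, the ratio between kinds of line turned to -0.28 (adjusted p = 0.0155, against log2 0.71 as deposited), and the difference of effects, called at log2 0.85 as deposited, was -0.12. The direction of the nutlin-3a change of CDH13 was thus the same either way, and the order of the kinds of line was not. CDH23 read 162.5, 172.1 and 76 scaled fragments in the treated shARVCF lines, 190.3, 128.4 and 105.4 in the untreated shARVCF lines, 119.3, 142.4 and 126.9 in the treated control libraries and 140.7 in the untreated one. CDH23, a tip-link cadherin of sensory hair cells, overlapped between all groups and had no call.

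The measured desmosomal cadherins were DSG2 (chr18:31498043-31549008, plus strand, 15 exons) and DSC2 (chr18:31058840-31102522, minus strand, 16 exons), the desmoglein and desmocollin of simple epithelia and heart. DSG2 stood at 2479, 3138 and 2909 scaled fragments in shARVCF lines 1, 2 and 3 with nutlin-3a against 2071, 2528 and 2380 without it, and at 1098, 799.7 and 846.9 in the control line with nutlin-3a against 2397 without it. Treated control libraries were the lowest of the 10 by a wide margin, and treated shARVCF lines were above their own untreated state in each line. DSG2 fell in the control line (log2 -1.40, SE 0.19, limma adjusted p = 4.59e-05) and read log2 0.29, adjusted p = 0.102 in the shARVCF lines, and the difference of effects was log2 1.69, SE 0.23, limma adjusted p = 0.000259. All of this held in direction with the trend removed, at log2 -0.46 in the control line, 0.80 between kinds of line under nutlin-3a (adjusted p = 0.000259) and 0.88 for the difference of effects (adjusted p = 0.0158), and the change in the shARVCF lines was then called at log2 0.42. It was also called as deposited with a replicate block on line (adjusted p = 0.049). In bulk RNA, fewer cells that express a gene and less RNA per cell cannot be told apart.

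DSC2 read 203.5, 284.1 and 214.9 scaled fragments in the treated shARVCF lines, 263.4, 263.2 and 222.6 in the untreated shARVCF lines, 121.3, 97.83 and 133.4 in the treated control libraries and 242 in the untreated one. DSC2 showed the same layout, with treated control libraries below all others, a control fall of log2 -1.05, SE 0.25, limma adjusted p = 0.00296 and a ratio under nutlin-3a of log2 0.98, SE 0.17, limma adjusted p = 0.00038. With the trend removed the control change was log2 0.21 and the ratio -0.28, neither called, so its calls depended on the correction, which takes its transcript as 12325 bases long. The DSC2 call for the difference of effects was lost without treated shARVCF line 2, untreated shARVCF line 3 or treated control library 2 (log2 0.80 to 0.86, adjusted p up to 0.0669). The epidermal genes were nearly silent. DSG1 was at 0 in all libraries, which says only that it is listed at 0. DSG3 read 3.652, 7.401 and 4.75 scaled fragments in treated shARVCF lines and 0 in the same lines untreated, and 6.016, 3.863 and 3.885 in treated control libraries beside 0.9137 in the untreated one. It was below the filter and not tested, and its treated and untreated libraries did not overlap.

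Of 8 measured nonclustered protocadherins 3 rose and 3 fell in the shARVCF lines, and 2 rose and 3 fell in the control line, where of all genes 21% were higher and 21.7% lower in shARVCF cells and 25.1% higher and 32% lower in control cells. After correction the control counts were 2 higher and 1 lower, where 28.7% and 21.1% of all genes were. As deposited the shARVCF counts include PCDH15 and PCDH19, and the control counts include PCDH19. Both passed the filter mainly through the group where they were high, which favours a call. PCDH17 (chr13:57631810-57729311, plus strand, 4 exons), a delta protocadherin of axons and synapses, rose in both kinds of line. PCDH17 stood at 1097, 1150 and 1101 scaled fragments in shARVCF lines 1, 2 and 3 with nutlin-3a against 182.3, 258.8 and 257.4 without it, and at 378, 322 and 300.4 in the control line with nutlin-3a against 201 without it. Treated shARVCF lines stood far above all other libraries, and the treated control libraries above all untreated ones. The rise was 4.84-fold in the shARVCF lines (log2 2.27, SE 0.15, limma adjusted p = 1.1e-07) and, in the control line, 1.65-fold (log2 0.72, SE 0.21, limma adjusted p = 0.0102). The difference of effects was log2 1.55, SE 0.25, limma adjusted p = 0.000822, and 0.65 with the trend removed (adjusted p = 0.111), when the control rise was log2 1.62. The ratio between kinds of line under nutlin-3a stayed called, at log2 0.85 against 1.75 as deposited.

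PCDH7 (chr4:30720415-31146805, plus strand, 2 exons), a delta protocadherin of brain and heart, rose to similar levels in both. PCDH7 read 1945, 2243 and 2474 scaled fragments in the treated shARVCF lines, 496, 664.8 and 844.2 in the untreated shARVCF lines, 2002, 2033 and 2046 in the treated control libraries and 718.9 in the untreated one. All treated libraries lay far above all untreated ones, and treated shARVCF and control libraries overlapped. Its rises were log2 1.76, SE 0.16, limma adjusted p = 3.52e-06 in the shARVCF lines and log2 1.49, SE 0.23, limma adjusted p = 0.000154 in the control line, and the ratio under nutlin-3a was log2 0.12, adjusted p = 0.53. Corrected for the trend, that ratio was log2 -0.52 (adjusted p = 0.029).

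PCDH18 (chr4:137518918-137532494, minus strand, 4 exons) was the member with the deepest fall in the control line. PCDH18 stood at 80.34, 74.93 and 51.3 scaled fragments in shARVCF lines 1, 2 and 3 with nutlin-3a against 328.8, 305.9 and 192.9 without it, and at 15.04, 16.74 and 23.31 in the control line with nutlin-3a against 360 without it. The 3 treated control libraries were the lowest, the treated shARVCF lines came next and all untreated libraries were higher. It fell 3.93-fold in the shARVCF lines (log2 -1.97, SE 0.27, limma adjusted p = 7.08e-05) and, in the control line, 18.9-fold (log2 -4.24, SE 0.38, limma adjusted p = 1.63e-06), and the effects differed by log2 2.27, SE 0.46, limma adjusted p = 0.00294. With the trend removed the control fall was log2 -3.22 and the difference 1.42 (adjusted p = 0.0541), which missed the threshold, while the ratio under nutlin-3a stayed called (log2 0.95).

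The windows before the starts of these 3 genes are printed because 2 of them rose and 1 fell. Capitals mark the same core letters as above.

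PCDH17 (chr13:57631494-57631743, plus strand): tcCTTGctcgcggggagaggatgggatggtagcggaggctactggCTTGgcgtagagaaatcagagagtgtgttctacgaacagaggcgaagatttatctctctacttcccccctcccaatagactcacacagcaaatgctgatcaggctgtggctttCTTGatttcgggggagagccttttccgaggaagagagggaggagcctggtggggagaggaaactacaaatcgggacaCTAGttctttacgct

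PCDH7 (chr4:30720119-30720368, plus strand): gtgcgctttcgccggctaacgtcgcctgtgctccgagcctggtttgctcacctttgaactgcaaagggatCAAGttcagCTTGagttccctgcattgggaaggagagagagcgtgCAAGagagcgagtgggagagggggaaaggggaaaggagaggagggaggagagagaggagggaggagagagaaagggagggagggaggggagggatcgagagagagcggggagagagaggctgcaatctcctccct

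PCDH18 (chr4:137532495-137532744, minus strand): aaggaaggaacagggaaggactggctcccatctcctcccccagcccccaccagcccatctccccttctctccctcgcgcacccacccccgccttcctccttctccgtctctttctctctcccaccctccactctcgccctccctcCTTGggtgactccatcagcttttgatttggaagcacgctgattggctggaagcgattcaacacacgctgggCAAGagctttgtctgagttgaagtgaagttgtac

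PCDH17 holds 4 such cores, PCDH7 3 and PCDH18 2, and none of the 3 windows holds the full p53 half-site.

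PCDH19 (chrX:100291644-100410273, minus strand, 6 exons), the X-linked gene of a childhood epilepsy, was low. For PCDH19, the values were 5.478, 4.625 and 3.8 scaled fragments in treated and 14.3, 25.16 and 11.89 in untreated shARVCF lines, beside 2.005, 1.288 and 1.295 in treated and 11.88 in untreated control cells. All treated libraries lay below all untreated ones, and it reached 10 in the untreated ones alone. PCDH1 (chr5:141853111-141879246, minus strand, 5 exons), expressed in airway epithelium, was lower in treated than untreated cells of each shARVCF line. PCDH1 read 86.73, 170.2 and 160.6 scaled fragments in the treated shARVCF lines, 176, 318.7 and 256.3 in the untreated shARVCF lines, 124.3, 135.2 and 129.5 in the treated control libraries and 228.3 in the untreated one. Line 1 read lowest in both states, so the groups spread widely, and the change was log2 -0.86, SE 0.26, limma adjusted p = 0.0203, with log2 -0.81 in the control line, or -0.73 with the trend removed. The PCDH1 call in the shARVCF lines was lost without treated shARVCF line 1 or untreated shARVCF line 2 or 3 (log2 -0.82 to -0.55, adjusted p up to 0.0837).

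PCDH9 stood at 129.6, 148 and 197.6 scaled fragments in shARVCF lines 1, 2 and 3 with nutlin-3a against 126.9, 129.4 and 158 without it, and at 38.1, 42.5 and 41.44 in the control line with nutlin-3a against 113.3 without it. PCDH9 (chr13:66302834-67230445, minus strand, 2 exons), a delta protocadherin of brain, thus had its lowest values in the 3 treated control libraries (log2 -1.46, SE 0.28, limma adjusted p = 0.000755), and the ratio under nutlin-3a was log2 1.91, SE 0.20, limma adjusted p = 5.51e-06. After correction these were log2 -0.16 and 0.37 and were not called. Its longest annotated transcript has 28227 bases, where few genes set the trend. PCDH15 (chr10:53802771-55627942, minus strand, 38 exons), the tip-link partner of CDH23, passed the filter through the treated shARVCF lines. For PCDH15, the values were 26.48, 27.75 and 24.7 scaled fragments in treated and 1.787, 10.79 and 6.797 in untreated shARVCF lines, beside 3.008, 2.576 and 15.54 in treated and 4.569 in untreated control cells. Treated shARVCF lines were the highest of the 10 libraries, and treated control library 3 stood above the other 2. PCDH8, an activity-regulated protocadherin, ranged over 7.77 to 22.94 with no call.

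The clustered protocadherins are considered by cluster, and in the order alpha, beta and gamma along the long arm of chromosome 5. Fragments from the shared constant exons of the alpha and gamma clusters must be divided among their genes by estimation. This shows in the values: of values up to 200 fragments, only 27.0% of alpha and 22.3% of gamma values were whole multiples of the scaled value of 1 fragment (tolerance 0.01), against 83.0% of beta values and 98.1% of nonclustered values. Values of single alpha and gamma genes are therefore uncertain, and the beta genes, which share no exons, are less so. Beta genes are close in sequence to each other, which can also divide fragments.

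Most promoters of these clusters hold a conserved element with the core CGCT, which in mammals lies at sites bound by CTCF. CGCT was found between 31 and 100 bases before the start on the gene's strand in 43 of 47 clustered members with a promoter entry (91.5%), in 8 of 27 other members (29.6%) and in 21.4% of 27305 promoters. Its distance from the start was 38 to 95 bases, with a median of 55. The windows below, 38 bases around it from RefSeq on GRCh38.p14, show the element (capitals) in members that differed in their response. Alpha members come first, then beta and gamma.

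PCDHA6 (chr5:140827896-140827933, plus strand): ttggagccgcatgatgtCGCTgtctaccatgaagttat

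PCDHA11 (chr5:140868882-140868919, plus strand): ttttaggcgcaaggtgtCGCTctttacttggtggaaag

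PCDHA12 (chr5:140875243-140875280, plus strand): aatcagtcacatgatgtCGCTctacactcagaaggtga

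PCDHB3 (chr5:141100392-141100429, plus strand): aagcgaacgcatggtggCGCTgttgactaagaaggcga

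PCDHB10 (chr5:141192298-141192335, plus strand): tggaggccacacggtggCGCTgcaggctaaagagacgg

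PCDHB14 (chr5:141223262-141223299, plus strand): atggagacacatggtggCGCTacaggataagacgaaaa

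PCDHB16 (chr5:141182309-141182346, plus strand): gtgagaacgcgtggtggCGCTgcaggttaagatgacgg

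PCDHGA2 (chr5:141338702-141338739, plus strand): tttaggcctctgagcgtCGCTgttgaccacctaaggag

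PCDHGA4 (chr5:141354959-141354996, plus strand): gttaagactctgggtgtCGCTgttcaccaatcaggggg

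The core is in the same place of each window by construction, and the letters around it differ between members. PCDHA11 and PCDHA12, which rose in the shARVCF lines, and PCDHA6, which did not, all hold it. Windows were printed only for members that hold the core, so they cannot show whether its presence goes with the response. The clustered members without it in that span were PCDHA9, PCDHB5, PCDHB8 and PCDHGB2. A link between the core and the response was not tested. Among 12 transcription factors known to act at cadherin promoters, 9 were measured, of which 1 was higher and 6 lower in the shARVCF lines (median log2 -0.64) and 0 higher and 6 lower in the control line (-0.99), against 21% higher and 21.7% lower of all genes in shARVCF cells and 25.1% higher and 32% lower in control cells. CTCF was lower with nutlin-3a in both kinds of line (log2 -0.86 in shARVCF and -1.61 in control, adjusted p = 2.9e-06 and 2.59e-07), as was the cohesin subunit RAD21 (log2 -1.63 and -2.96, and -1.44 and -2.26 with the trend removed).

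In the alpha cluster 2 of 14 members rose in the shARVCF lines, where 21% of all genes did, and 6 fell in the control line, where 32% of all genes did. After that correction 1 was higher and 3 lower in the control line, where 28.7% and 21.1% of all genes were. The sum over its 15 genes, which depends less on the division among them, was 1841, 1865 and 1410 scaled fragments in treated and 1409, 1525 and 973.2 in untreated shARVCF lines, beside 860.1, 765.5 and 738.5 in treated and 1419 in untreated control cells. The treated control libraries were the lowest, and each shARVCF line was higher with nutlin-3a than without. PCDHA12 stood at 595.2, 528 and 377 scaled fragments in shARVCF lines 1, 2 and 3 with nutlin-3a against 190.4, 195 and 129.6 without it, and at 206.2, 190.8 and 132.5 in the control line with nutlin-3a against 256.2 without it. PCDHA12 (chr5:140875302-141012344, plus strand, 4 exons) rose in each shARVCF line (log2 1.53, SE 0.22, limma adjusted p = 0.000154), and in the control line the value was log2 -0.56, adjusted p = 0.15.

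PCDHA11 read 374.1, 380.4 and 236.8 scaled fragments in the treated shARVCF lines, 141, 170.3 and 115.6 in the untreated shARVCF lines, 92.12, 115.8 and 67.01 in the treated control libraries and 197.3 in the untreated one. PCDHA11 (chr5:140868183-141012344, plus strand, 4 exons) likewise rose in the shARVCF lines (log2 1.19, SE 0.24, limma adjusted p = 0.00164) and fell in the control line (log2 -1.13, SE 0.34, limma adjusted p = 0.0133), with no overlap in either. The effects differed by log2 2.1 for PCDHA12 and 2.33 for PCDHA11 (adjusted p = 0.00185 and 0.00151), and by 1.5 and 1.57 with the trend removed, both still called. The fall of PCDHA11 in the control line was then log2 -0.33 and no longer called.

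PCDHA6 stood at 258.4, 231.9 and 179.9 scaled fragments in shARVCF lines 1, 2 and 3 with nutlin-3a against 447, 380.7 and 208 without it, and at 118.3, 64.48 and 102.8 in the control line with nutlin-3a against 363.3 without it. PCDHA6 (chr5:140827958-141012344, plus strand, 4 exons) fell in the control line (log2 -1.97, SE 0.42, limma adjusted p = 0.0019), and the trend-removed fall was log2 -1.32. In the shARVCF lines it read log2 -0.57, lower in each line, and was called with a replicate block on line (adjusted p = 0.0475) but not without it. The makeup of the cluster shifted accordingly. PCDHA12 made up 32.3%, 28.3% and 26.7% of the alpha sum in treated and 13.5%, 12.8% and 13.3% in untreated shARVCF lines, and 24.0%, 24.9% and 17.9% in treated against 18.1% in untreated control cells. PCDHA6 made up 14.0%, 12.4% and 12.8% of it in treated and 31.7%, 25.0% and 21.4% in untreated shARVCF lines, and 13.8%, 8.42% and 13.9% in treated against 25.6% in untreated control cells.

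The last first exons of the cluster behaved differently from each other. PCDHAC2 read 115.4, 209.4 and 104.2 scaled fragments in the treated shARVCF lines, 172.6, 233.8 and 162.8 in the untreated shARVCF lines, 22.63, 11.59 and 20.24 in the treated control libraries and 164.8 in the untreated one. PCDHAC2 (chr5:140966235-141012344, plus strand, 4 exons) fell 8.97-fold in the control line (log2 -3.16, SE 0.43, limma adjusted p = 5.68e-05) and read log2 -0.46, adjusted p = 0.256 in the shARVCF lines. The effects differed by log2 2.71, SE 0.53, limma adjusted p = 0.00245, and by 2.07 with the trend removed (adjusted p = 0.0224). PCDHAC1, the other C-type alpha gene, ranged over 19.05 to 75.59 with no call.

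For PCDHA3, the values were 27.68, 27.18 and 23.09 scaled fragments in treated and 29.27, 23.08 and 29.45 in untreated shARVCF lines, beside 8.107, 1.312 and 7.526e-182 in treated and 31.32 in untreated control cells. PCDHA3 was thus lower in treated control libraries (log2 -3.55, SE 0.89, limma adjusted p = 0.00464), 1 of which was estimated at a vanishing value, so its fold carries little meaning. Without that library the fall was log2 -2.82 and without treated control library 1 it was -4.41. The PCDHA3 call for the difference of effects was lost without treated shARVCF line 1 or 2, untreated shARVCF line 2 or treated control library 2 (log2 3.36 to 3.45, adjusted p up to 0.0592). PCDHA5 read 106.1, 80.53 and 89.48 scaled fragments in the treated shARVCF lines, 69.14, 83.27 and 44.13 in the untreated shARVCF lines, 29.88, 16.74 and 22.02 in the treated control libraries and 70.74 in the untreated one. PCDHA2 read 21, 15.73 and 26.48 scaled fragments in the treated shARVCF lines, 20.55, 19.75 and 16.73 in the untreated shARVCF lines, 5.016, 9.081 and 2.59 in the treated control libraries and 18.27 in the untreated one. PCDHA5 and PCDHA2 had treated control libraries below all others (log2 -1.62, adjusted p = 0.0047, and log2 -1.68, adjusted p = 0.0311), and with the trend removed neither fall was called (log2 -0.98 and -1.05). The PCDHA2 call in the control line was lost without treated control library 3 (log2 -1.31, adjusted p = 0.0579).

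PCDHA1 stood at 44.89, 91.1 and 118.2 scaled fragments in shARVCF lines 1, 2 and 3 with nutlin-3a against 54.59, 103.6 and 66.62 without it, and at 162.5, 116.6 and 225.5 in the control line with nutlin-3a against 124.6 without it. PCDHA1 was, with CDH15, 1 of the 2 members called as lower in treated shARVCF than treated control libraries (log2 -1.04, SE 0.37, limma adjusted p = 0.0303), and the groups overlapped. The PCDHA1 call between kinds of line under nutlin-3a was lost without treated shARVCF line 1 or treated control library 1 or 3 (log2 -1.04 to -0.64, adjusted p up to 0.119). PCDHA4 read 153.1, 141 and 109 scaled fragments in the treated shARVCF lines, 169.2, 158 and 92.34 in the untreated shARVCF lines, 130, 125.2 and 56.4 in the treated control libraries and 77.67 in the untreated one. For PCDHA8, the values were 16.61, 13.88 and 15.45 scaled fragments in treated and 9.829, 18.05 and 3.399 in untreated shARVCF lines, beside 5.848, 7.207 and 1.312 in treated and 9.832 in untreated control cells. PCDHA4 had no call, and PCDHA8 reached 10 in the treated shARVCF lines and 1 untreated one alone. For PCDHA4 and PCDHA10 the longest annotated transcript is 1 exon of 10557 and 12358 bases, so their single trend-removed values are not given. They still enter the corrected counts of the cluster and of the family. PCDHA7, PCDHA10 and PCDHA13 ranged over 10.3 to 55.59, 3.936 to 43.25 and 3.885 to 16.93 with no call.

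**Figure D4:**
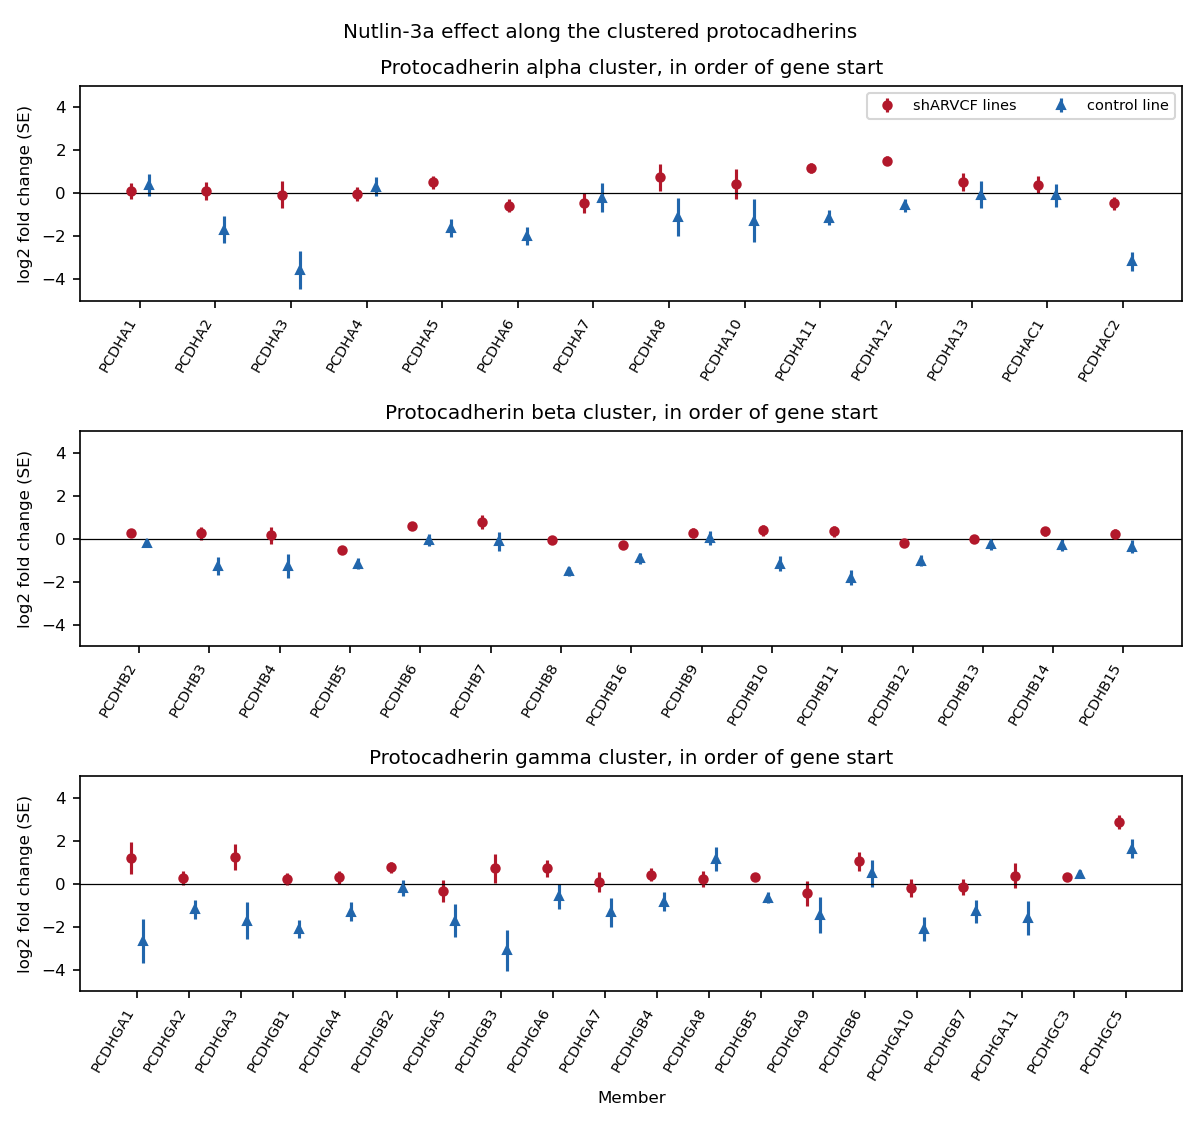
Log2 fold change of nutlin-3a over untreated along the alpha, beta and gamma clusters in order of gene start, with circles for the shARVCF lines, triangles for the control line and bars for the standard error. The circles lie above the triangles for most members, among them PCDHAC2 (-0.46 and -3.16) and PCDHA12 (1.53 and -0.56), and PCDHGC5 is high in both (2.89 and 1.63).

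In the beta cluster no member of 15 rose in the control line and 7 fell there, where 25.1% and 32% of all genes did. In the shARVCF lines PCDHB6 rose and PCDHB5 fell, where 21% and 21.7% of all genes did. Corrected for the trend, 4 fell in the control line, where 21.1% of all genes did. The median log2 change of the cluster there was -0.17 against -0.92 as deposited. Its sum over 16 genes was 4901, 4799 and 3851 scaled fragments in treated and 5441, 5056 and 3776 in untreated shARVCF lines, beside 2718, 3332 and 3150 in treated and 5793 in untreated control cells. The treated control libraries were the lowest 3 of 10. PCDHB5 stood at 1692, 1556 and 1162 scaled fragments in shARVCF lines 1, 2 and 3 with nutlin-3a against 2479, 2099 and 1683 without it, and at 975.8, 1339 and 1206 in the control line with nutlin-3a against 2594 without it. PCDHB5 (chr5:141135218-141138625, plus strand, 1 exon), the main beta gene, fell in both kinds of line (log2 -0.51, SE 0.17, limma adjusted p = 0.0357 in shARVCF, with overlap between the groups, and log2 -1.16, SE 0.25, limma adjusted p = 0.00189 in control), and each shARVCF line was lower with nutlin-3a than without. Its trend-removed control fall was log2 -0.91. The PCDHB5 call in the shARVCF lines was lost without treated shARVCF line 2 or 3, untreated shARVCF line 1 or 2 or treated control library 3 (log2 -0.56 to -0.35, adjusted p up to 0.132).

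PCDHB8 read 276.6, 321.9 and 314.5 scaled fragments in the treated shARVCF lines, 317.2, 359.8 and 270.2 in the untreated shARVCF lines, 126.3, 152 and 147.6 in the treated control libraries and 408.2 in the untreated one. PCDHB8 (chr5:141177790-141180529, plus strand, 1 exon) had a control fall of log2 -1.52, SE 0.21, limma adjusted p = 5.02e-05 as deposited and log2 -1.65 with the trend removed, and had no call in the shARVCF lines. The effects differed by log2 1.48, SE 0.25, limma adjusted p = 0.00105. PCDHB11 stood at 624.4, 563.4 and 427.5 scaled fragments in shARVCF lines 1, 2 and 3 with nutlin-3a against 573.6, 477.5 and 270.2 without it, and at 135.4, 181.6 and 169.6 in the control line with nutlin-3a against 569.2 without it. PCDHB11 (chr5:141199582-141203779, plus strand, 1 exon) followed, with log2 -1.82, SE 0.36, limma adjusted p = 0.00123 in the control line and a difference of effects of log2 2.16, SE 0.44, limma adjusted p = 0.00384. Both differences stayed called with the trend removed, at log2 1.62 for PCDHB8 and 1.74 for PCDHB11.

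For PCDHB6, the values were 113.2, 147.1 and 119.7 scaled fragments in treated and 80.42, 104.9 and 70.52 in untreated shARVCF lines, beside 67.18, 69.54 and 73.81 in treated and 74.01 in untreated control cells. PCDHB6 (chr5:141150022-141153287, plus strand, 1 exon) rose in each shARVCF line (log2 0.58, SE 0.20, limma adjusted p = 0.0355) and stood higher in treated shARVCF than treated control libraries (log2 0.83, adjusted p = 0.00338). The PCDHB6 call in the shARVCF lines was lost without treated shARVCF line 2 or 3 or untreated shARVCF line 1 or 3 (log2 0.45 to 0.61, adjusted p up to 0.145). PCDHB10 read 332.3, 363.6 and 220.4 scaled fragments in the treated shARVCF lines, 265.8, 287.3 and 152.9 in the untreated shARVCF lines, 133.4, 145.5 and 117.2 in the treated control libraries and 297.9 in the untreated one. PCDHB3 read 45.63, 39.78 and 30.56 scaled fragments in the treated shARVCF lines, 36.63, 34.56 and 26.34 in the untreated shARVCF lines, 18.05, 11.59 and 19.42 in the treated control libraries and 40.22 in the untreated one. PCDHB10 and PCDHB3 had treated control libraries below all other libraries, with falls of log2 -1.17, adjusted p = 0.0125 and log2 -1.28, adjusted p = 0.0223. The corrected falls were log2 -0.90 and -1.04, and PCDHB10 alone kept the call. The PCDHB3 call for the difference of effects was lost without treated shARVCF line 1 or 2, untreated shARVCF line 1, 2 or 3 or treated control library 2 (log2 1.30 to 1.61, adjusted p up to 0.0858).

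PCDHB12 stood at 249.2, 282.1 and 170.1 scaled fragments in shARVCF lines 1, 2 and 3 with nutlin-3a against 283.2, 294.1 and 224.3 without it, and at 144.4, 164.8 and 154.1 in the control line with nutlin-3a against 313.4 without it. PCDHB16 stood at 94.95, 103.6 and 89.3 scaled fragments in shARVCF lines 1, 2 and 3 with nutlin-3a against 130.8, 120.6 and 101.1 without it, and at 84.23, 70.83 and 80.29 in the control line with nutlin-3a against 148.5 without it. Both were lower in every treated control library than in the untreated one (log2 -1.02, adjusted p = 0.00588, and log2 -0.92, adjusted p = 0.00755), and neither fall was called with the trend removed (log2 -0.50 and -0.17). The PCDHB12 call between kinds of line under nutlin-3a was lost without treated shARVCF line 1 or 2 or treated control library 1 or 3 (log2 0.41 to 0.56, adjusted p up to 0.102). PCDHB14 read 524.3, 467.6 and 366 scaled fragments in the treated shARVCF lines, 430.3, 407.4 and 246.7 in the untreated shARVCF lines, 274, 338.1 and 312.2 in the treated control libraries and 377.4 in the untreated one. For PCDHB4, the values were 34.69, 40.7 and 29.45 scaled fragments in treated and 43.78, 38.24 and 17.84 in untreated shARVCF lines, beside 11.03, 24.47 and 16.83 in treated and 41.12 in untreated control cells. PCDHB14 and PCDHB4 were called only between the kinds of line under nutlin-3a (log2 0.54, adjusted p = 0.0386, and log2 1.02, adjusted p = 0.0384), and the trend-removed ratios were log2 -0.09 and 0.58, with no call. The PCDHB14 call between kinds of line under nutlin-3a was lost without treated shARVCF line 1 or 2 or treated control library 1, 2 or 3 (log2 0.43 to 0.61, adjusted p up to 0.133). The PCDHB4 call between kinds of line under nutlin-3a was lost without treated shARVCF line 1 or 2 or treated control library 1 or 3 (log2 0.74 to 1.03, adjusted p up to 0.145).

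PCDHB2 read 571.2, 531.9 and 566.2 scaled fragments in the treated shARVCF lines, 506.6, 455 and 421.8 in the untreated shARVCF lines, 436.2, 510 and 521.9 in the treated control libraries and 559.1 in the untreated one. PCDHB13 stood at 127, 142.5 and 160.6 scaled fragments in shARVCF lines 1, 2 and 3 with nutlin-3a against 116.6, 169.6 and 145.3 without it, and at 130.4, 133.9 and 139.7 in the control line with nutlin-3a against 162.6 without it. For PCDHB9, the values were 101.3, 124 and 99.69 scaled fragments in treated and 76.84, 128.4 and 71.37 in untreated shARVCF lines, beside 81.22, 85 and 98.64 in treated and 86.81 in untreated control cells. None of PCDHB2, PCDHB13 and PCDHB9 was called in any comparison as deposited. PCDHB7 and PCDHB15 ranged over 11.89 to 44.66 and 50.5 to 80.48 with no call.

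In the gamma cluster PCDHGC5, PCDHGC3 and PCDHGB2 rose in the shARVCF lines, PCDHGC5 and PCDHGC3 rose in the control line, and 7 of 20 members fell there. Of all genes 21% rose in the shARVCF lines, and 25.1% rose and 32% fell in the control line. The control counts were 3 higher and 3 lower with the trend removed, where 28.7% and 21.1% of all genes were. In the first library series alone they were 0 higher and 3 lower, where 3254 and 4135 of all 14955 tested genes were. Its sum over 22 genes was 4621, 4907 and 4642 scaled fragments in treated and 3569, 3768 and 3071 in untreated shARVCF lines, beside 3175, 4428 and 3704 in treated and 3580 in untreated control cells. Each shARVCF line was higher with nutlin-3a, and the untreated control library lay among the treated ones. PCDHGC3 stood at 2880, 2967 and 2765 scaled fragments in shARVCF lines 1, 2 and 3 with nutlin-3a against 2264, 2549 and 2017 without it, and at 2407, 3307 and 2906 in the control line with nutlin-3a against 2056 without it. PCDHGC3 (chr5:141475947-141512979, plus strand, 4 exons), a C-type gene expressed from the end of the cluster, made up 59.6% to 62.3% of the gamma sum in treated and 63.4% to 67.7% in untreated shARVCF lines, and 74.7% to 78.5% in treated against 57.4% in untreated control cells. It rose in the shARVCF lines (log2 0.34, SE 0.12, limma adjusted p = 0.0376) and in the control line (log2 0.47, SE 0.17, limma adjusted p = 0.0318), or log2 0.66 there with the trend removed. Without the second library series the control value was log2 0.23 (adjusted p = 0.29). The PCDHGC3 call in the shARVCF lines was lost without treated shARVCF line 1, 2 or 3, untreated shARVCF line 1 or 3 or treated control library 3 (log2 0.26 to 0.37, adjusted p up to 0.139). The PCDHGC3 call in the control line was lost without treated control library 2 or 3 (log2 0.36 to 0.46, adjusted p up to 0.081).

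PCDHGC5 read 331.7, 476.4 and 410.4 scaled fragments in the treated shARVCF lines, 61.07, 77.19 and 32.3 in the untreated shARVCF lines, 153.5, 265.4 and 140.7 in the treated control libraries and 57.2 in the untreated one. PCDHGC5 (chr5:141489121-141512979, plus strand, 4 exons), the last gene of the cluster, rose 7.39-fold in the shARVCF lines (log2 2.89, SE 0.32, limma adjusted p = 2.3e-05) and, in the control line, 3.09-fold (log2 1.63, SE 0.45, limma adjusted p = 0.00929), with no overlap of treated and untreated libraries. Treated over untreated, the ratio was 5.43, 6.17 and 12.7 in shARVCF lines 1, 2 and 3. In the first library series alone the control value was log2 1.41 (adjusted p = 0.0609), and with all libraries and the trend removed it was log2 1.83. Its share of the gamma sum was 7.18%, 9.71% and 8.84% in treated and 1.71%, 2.05% and 1.05% in untreated shARVCF lines, and 4.83%, 5.99% and 3.8% in treated against 1.6% in untreated control cells.

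PCDHGB1 stood at 312.6, 311.6 and 273.5 scaled fragments in shARVCF lines 1, 2 and 3 with nutlin-3a against 266.8, 274.3 and 225.5 without it, and at 90.03, 37.35 and 97.78 in the control line with nutlin-3a against 300.3 without it. PCDHGB1 (chr5:141350102-141512979, plus strand, 4 exons) fell in the control line (log2 -2.1, SE 0.42, limma adjusted p = 0.00114), read log2 0.23, adjusted p = 0.567 in the shARVCF lines, and its effects differed by log2 2.33, SE 0.51, limma adjusted p = 0.00528, or 2.1 with the trend removed (adjusted p = 0.027). PCDHGB2 read 132.3, 108 and 133.2 scaled fragments in the treated shARVCF lines, 103.7, 60.2 and 61.48 in the untreated shARVCF lines, 51.23, 82.78 and 54.86 in the treated control libraries and 70.9 in the untreated one. PCDHGB2 rose in the shARVCF lines (log2 0.76, SE 0.26, limma adjusted p = 0.0319), with treated lines above untreated ones, and read log2 1.00 between the kinds of line under nutlin-3a (adjusted p = 0.00543), or 0.81 with the trend removed. The PCDHGB2 call in the shARVCF lines was lost without treated shARVCF line 1 or 3 or untreated shARVCF line 2 or 3 (log2 0.63 to 0.71, adjusted p up to 0.115).

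For PCDHGB3, the values were 35.75, 26.5 and 14.25 scaled fragments in treated and 20.08, 6.864 and 19.99 in untreated shARVCF lines, beside 4.091, 0 and 0 in treated and 13.71 in untreated control cells. For PCDHGB3, 2 treated control libraries were listed at 0, both of the second library series, and in the first series alone the control change was log2 -1.53 (adjusted p = 0.183), against -3.10 with all libraries and -3.88 without treated control library 1. The PCDHGB3 call for the difference of effects was lost without treated shARVCF line 1 or 2, untreated shARVCF line 2 or treated control library 2 or 3 (log2 3.34 to 3.74, adjusted p up to 0.0592). PCDHGA1 read 19.74, 18.38 and 11.01 scaled fragments in the treated shARVCF lines, 9.45, 8.402 and 3.026 in the untreated shARVCF lines, 10.89, 10.31 and 0.5311 in the treated control libraries and 36.56 in the untreated one. PCDHGA3 read 43, 26.35 and 20.9 scaled fragments in the treated shARVCF lines, 13.4, 10.79 and 10.2 in the untreated shARVCF lines, 26.7, 13.19 and 2.721 in the treated control libraries and 36.11 in the untreated one. PCDHGA1 was lower in the treated control libraries (log2 -2.67, adjusted p = 0.0433), and PCDHGA3 had no call except in the difference of effects (log2 2.97, adjusted p = 0.0484). In both, treated control library 3 was far below the other 2, and the untreated control library was above every untreated shARVCF library. The PCDHGA1 call in the control line was lost without treated shARVCF line 1 or 2, untreated shARVCF line 2 or treated control library 3 (log2 -2.67 to -1.70, adjusted p up to 0.0547). The PCDHGA1 call for the difference of effects was lost without treated shARVCF line 1 or 2 or untreated shARVCF line 3 (log2 3.44 to 3.77, adjusted p up to 0.0649). The PCDHGA3 call for the difference of effects was lost without treated shARVCF line 1 or 2, untreated shARVCF line 1, 2 or 3 or treated control library 2 (log2 2.69 to 3.13, adjusted p up to 0.0899).

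PCDHGA10 stood at 26.48, 69.62 and 45.68 scaled fragments in shARVCF lines 1, 2 and 3 with nutlin-3a against 39.9, 68.93 and 46.24 without it, and at 20.01, 14.32 and 35.53 in the control line with nutlin-3a against 96.58 without it. PCDHGA2 stood at 69.22, 53.65 and 46.75 scaled fragments in shARVCF lines 1, 2 and 3 with nutlin-3a against 73.52, 36.28 and 35.61 without it, and at 17.01, 14.17 and 18.16 in the control line with nutlin-3a against 38.38 without it. PCDHGA4 stood at 134, 110.6 and 183.1 scaled fragments in shARVCF lines 1, 2 and 3 with nutlin-3a against 151.1, 80.4 and 120 without it, and at 54.88, 120.5 and 63.35 in the control line with nutlin-3a against 184.6 without it. PCDHGA10, PCDHGA2 and PCDHGA4 were lower in every treated control library than in the untreated one (log2 -2.1, adjusted p = 0.00684, log2 -1.18, adjusted p = 0.0397, and log2 -1.29, adjusted p = 0.0277), and only the fall of PCDHGA10 stayed called with the trend removed (log2 -1.88). The PCDHGA2 call in the control line was lost without treated shARVCF line 2 or treated control library 1 or 2 (log2 -1.21 to -1.08, adjusted p up to 0.0765). The PCDHGA4 call in the control line was lost without treated control library 1 or 3 (log2 -1.17 to -1.07, adjusted p up to 0.0733). The PCDHGA4 call between kinds of line under nutlin-3a was lost without treated shARVCF line 1 or 3 or treated control library 1 or 3 (log2 0.67 to 0.92, adjusted p up to 0.126). The PCDHGA4 call for the difference of effects was lost without treated shARVCF line 1 or 3, untreated shARVCF line 2 or 3 or treated control library 1 or 3 (log2 1.34 to 1.63, adjusted p up to 0.0909). PCDHGB5 read 203.2, 220.6 and 157.1 scaled fragments in the treated shARVCF lines, 176.7, 135.5 and 154.7 in the untreated shARVCF lines, 98.85, 123.4 and 93.65 in the treated control libraries and 165.1 in the untreated one. PCDHGB5 fell in the control line (log2 -0.65, adjusted p = 0.0487) and was higher in treated shARVCF than treated control libraries (log2 0.87, SE 0.19, limma adjusted p = 0.00147). The PCDHGB5 call in the control line was lost without treated shARVCF line 1 or 2, untreated shARVCF line 1, 2 or 3 or treated control library 1 or 3 (log2 -0.65 to -0.58, adjusted p up to 0.1). The PCDHGB5 call for the difference of effects was lost without treated shARVCF line 1 or 2, untreated shARVCF line 2 or 3 or treated control library 1 or 3 (log2 0.86 to 0.96, adjusted p up to 0.0819).

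For PCDHGA9, the values were 38.65, 8.326 and 19 scaled fragments in treated and 18.23, 29.38 and 30.92 in untreated shARVCF lines, beside 6.21, 1.288 and 6.5 in treated and 12.79 in untreated control cells. For PCDHGA6, the values were 53.23, 19.33 and 25.41 scaled fragments in treated and 20.55, 14.71 and 17.84 in untreated shARVCF lines, beside 13.11, 19.61 and 10.8 in treated and 21.62 in untreated control cells. PCDHGA9 and PCDHGA6 were called only between the kinds of line under nutlin-3a (log2 1.97, adjusted p = 0.0124, and log2 1.03, adjusted p = 0.0438), with overlap for PCDHGA6. The corrected ratios were log2 1.74 and 0.32, the second of which was not called. In this cluster the longest annotated transcript is 1 exon for PCDHGA6 (5650 bases), PCDHGA8, PCDHGB4 and PCDHGB6, which limits their corrected values. The PCDHGA9 call between kinds of line under nutlin-3a was lost without treated shARVCF line 1 or treated control library 2 (log2 1.41 to 1.45, adjusted p up to 0.0633). The PCDHGA6 call between kinds of line under nutlin-3a was lost without treated shARVCF line 1 or 3, untreated shARVCF line 1, 2 or 3 or treated control library 1 or 3 (log2 0.62 to 1.14, adjusted p up to 0.206). PCDHGB4 read 212.8, 377.5 and 395.9 scaled fragments in the treated shARVCF lines, 236.6, 300.2 and 186.7 in the untreated shARVCF lines, 148.2, 289.9 and 155.4 in the treated control libraries and 336.3 in the untreated one. PCDHGB4 was among the more abundant gamma genes and had no call. As deposited, the other 6 measured gamma genes, PCDHGA5, PCDHGA7, PCDHGA8, PCDHGA11, PCDHGB6 and PCDHGB7, lay between 2.005 and 58.18 scaled fragments with no call.

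**Figure D5:**
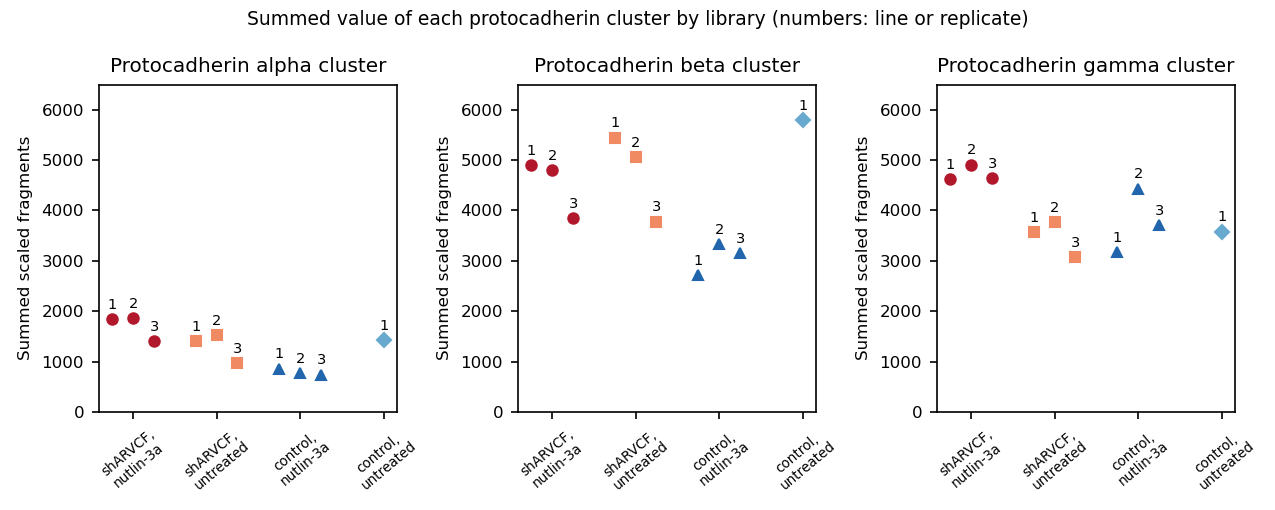
Summed scaled fragments of the alpha, beta and gamma clusters in each library, with groups along the x axis (shARVCF with nutlin-3a, shARVCF untreated, control with nutlin-3a, control untreated), and numbers that name the line or replicate. Treated control libraries are the lowest for alpha (738.5 to 860.1) and beta (2718 to 3332), but not for gamma (3175 to 4428), and line 3 is the lowest shARVCF line for alpha and beta in both states.

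The shARVCF lines differed among themselves in clustered genes. Line 3 read lowest of the 3 lines both with and without nutlin-3a for 10 of 15 beta members (66.7%), 6 of 14 alpha members (42.9%) and 6 of 20 gamma members (30.0%), where 20.1% of all tested genes had line 3 lowest in both states. Among beta members 0 had line 3 highest in both. A line stands for a shRNA, a clone or pool and its culture at once, and which of these goes with the lower values was not tested.

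Since line pairs the treated and untreated shARVCF libraries, a replicate block on line was also fitted. For the nutlin-3a effects and their difference, line was a fixed term of the model. For the comparisons between kinds of line, it entered as a shared correlation between libraries of a line (0.18), with all control libraries in the same block. In the shARVCF lines it added calls for CDH4 (adjusted p = 0.0265), PCDHB7 (0.0313), PCDHB10 (0.0301) and PCDHB14 (0.0329) beside DSG2 and PCDHA6. In the control line it added PCDH1 (0.00384), PCDHB4 (0.0422) and PCDHGB7 (0.0389). For the difference of effects it added PCDHA6 (0.012), PCDHB5 (0.017), PCDHB12 (0.0152), PCDHB14 (0.0304), PCDHGA2 (0.0241) and PCDHGA10 (0.0185), and PCDHGA3 lost its call (0.052). Between kinds of line under nutlin-3a 4 calls were lost, among them PCDHB4 (0.0614), PCDHGA4 (0.052) and PCDHGA6 (0.0673). Higher calls of the alpha cluster also went from 8 to 7 there.

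Without drug no member was called between shARVCF and control lines, where 0.0201% of all genes were called (3 of 14955). At an unadjusted p under 0.05 there were 2 members and 237 genes by limma. The median log2 change of members was -0.15 and of all genes -0.01. Of the 74 members 29 were lower in each shARVCF line than in the untreated control library (39.2%) and 8 higher (10.8%), where 20.9% and 19% of all genes were. The control side is 1 library, so its own deviation enters every such comparison.

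Partners of cadherins at the junction plaque were counted in the same way. Of 16 measured plaque genes 6 were higher and 4 lower with nutlin-3a in the shARVCF lines (median log2 0.06), and 5 higher and 8 lower in the control line (-0.57), where of all genes 21% were higher and 21.7% lower in shARVCF cells and 25.1% higher and 32% lower in control cells. The corrected control counts were 6 higher and 5 lower (-0.03), where 28.7% and 21.1% of all genes were. The desmosomal plaque gene DSP (log2 1.96 in shARVCF and 1.70 in control), plakoglobin JUP (0.60 and 0.91) and PERP, a p53-induced desmosomal membrane protein (0.96 and 0.91), rose in both. The p120 relative PKP4 fell in both (-0.59 and -1.19). The plakophilins PKP2 and PKP3, also of this list, did not rise in both. PKP2 read 1447, 1293 and 997.5 scaled fragments in treated and 995.4, 743.2 and 768.7 in untreated shARVCF lines. In control cells PKP2 read 520.4, 481.8 and 491.5 treated against 928.5 untreated. PKP3 read 61.17, 57.35 and 52.25 in treated and 71.3, 75.27 and 97.71 in untreated shARVCF lines. In control cells PKP3 read 78.21, 82.42 and 61.58 treated against 112.4 untreated. The corrected control values were log2 2.58 for DSP, 0.73 for JUP, 1.69 for PERP and -0.46 for PKP4, all still called. CTNND1, p120-catenin itself, fell in the control line (log2 -1.17, and -0.36 with the trend removed) and was higher in treated shARVCF than treated control cells by log2 0.84, which was 0.06 and no call with the trend removed.

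Large cadherins outside the symbol rule include the FAT, CELSR and calsyntenin genes. Of 14 measured, 6 were higher and 3 lower in the shARVCF lines (median log2 0.20), where 21% and 21.7% of all genes were. In the control line 2 were higher and 7 lower (-0.83), where 25.1% and 32% of all genes were. In treated shARVCF against treated control cells 10 were higher and 0 lower (0.91), where 32.3% of all genes were higher and 26.1% lower. Corrected, this last comparison gave 4 higher and 3 lower (0.15), where 15.9% and 23% of all genes were. FAT4 fell in the control line (log2 -2.60, and -1.57 with the trend removed), and so did FAT1 (-1.98, and -1.01). Of 16 genes of cadherin shedding and trafficking, 4 were higher and 2 lower in the shARVCF lines (0.06), where 21% and 21.7% of all genes were. In the control line 3 were higher and 6 lower (-0.19), where 25.1% and 32% of all genes were. With the trend removed 5 were higher and 2 lower there (0.12), where 28.7% and 21.1% of all genes were. The membrane protease MMP14 rose in both kinds of line (log2 1.23 and 1.45), and ADAM10, the main sheddase of classical cadherins, read log2 -1.01 in the control line, or 0.27 and no call with the trend removed. ZEB1, a repressor of E-cadherin, fell in the control line (log2 -1.78, and -0.67 with the trend removed). In the shARVCF lines ZEB1 fell by log2 -0.25, or -0.06 and no call with the trend removed. SNAI1, another such repressor, fell in both kinds of line (log2 -1.20 in shARVCF and -0.55 in control). SNAI2, of the same list of transcription factors, went the other way. It read 733.1, 875.7 and 674.5 scaled fragments in treated and 500.4, 578.4 and 440.1 in untreated shARVCF lines. In control cells SNAI2 read 517.4, 618.2 and 651.4 treated against 468.1 untreated. CDH1 is described above, and a link to these genes was not tested.

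The 20 members below the filter were CDH3, CDH9, CDH16, CDH17, CDH19, CDH20, CDH22, CDH26, DSC1, DSC3, DSG1, DSG3, DSG4, PCDH10, PCDH12, PCDH20, PCDHA9, PCDHB1, PCDHGA12 and PCDHGC4. Their highest single value was 13.94 scaled fragments, for PCDH12, a protocadherin of endothelium. PCDH20 was listed at 0 in all 10 libraries. Because a gene could pass the filter on its higher group alone, counts over the 74 measured members describe those members and not the 94.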

How the data were processed

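RNA of 10 U2OS libraries was sequenced with a stranded mRNA kit, per the labels' protocols. The submitters' processing notes name bcl2fastq 1.8.3, HISAT2 2.1.0, Cuffnorm 2.2.1 and hg38, with no roles, and no annotation is given in the notes or labels. Each deposited value is a signal: the authors' estimate of fragments per gene, scaled per library. It is not a whole count, and only 48.7% to 55.1% of positive values were whole multiples (tolerance 0.01) of the value of 1 fragment. That value, 0.8496 to 1.295, was read from the low values and gave the estimated depth.

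The tests used limma 3.58.1 (R 4.3.3) on log2(value + 1) for the 14955 genes with at least 10 in at least 3 libraries. The model had 4 group means over 10 libraries, 6 residual degrees of freedom, and variances moderated with a trend and robustly. Tests were two-sided, with Benjamini-Hochberg adjustment over all tested genes and calls at 0.05. The lone untreated control library was assumed to vary like the others. The pseudocount makes fold changes of low genes too small. The comparisons share libraries and 1 estimate of spread. The script was tested on simulated data.

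Members and lists were chosen with earlier results of these data known. Any measured member could be named, with values in every library for the 59 with a group mean of at least 100 or a call, and ranges for the other 15. Outside the family, ARVCF served as a check. Some genes of each list were named as examples, and not strictly by smallest adjusted p. Positions, lengths and GC came from GENCODE 29, with 24016 symbols matched by name, 746 by an older name and 1278 unmatched. The length and GC correction removed a spline (4 degrees of freedom per term, 14750 genes) from each library. Promoters are from RefSeq on GRCh38.p14.

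Same-numbered treated and untreated shARVCF libraries come from the same shRNA line, and their deviations from the group means correlated across genes (r = 0.275, 0.288 and 0.327), so line pairs them. With the replicate block on line 27 members were called in the shARVCF lines. Alternatives were pseudocounts of 0.1 and 10, no filter, TMM factors, upper-quartile factors, library series as model term, the first 8 libraries only, the block, the correction, both together, and each library left out. Of the marker genes and promoter windows examined, 1 of each is not reported here.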

Additional observations from a re-analysis of the deposited data

Results flagged for a closer look

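The nutlin-3a effect was more positive in the shARVCF lines than in the control line for 25 members, by limma's test of the difference itself. The values are differences of log2 effects, shARVCF minus control. Among gamma genes they were 3.87 for PCDHGA1, 3.81 for PCDHGB3, 2.97 for PCDHGA3, 2.33 for PCDHGB1, 1.59 for PCDHGA4 and 0.96 for PCDHGB5. Among alpha genes they were 3.49 for PCDHA3, 2.71 for PCDHAC2, 2.33 for PCDHA11, 2.15 for PCDHA5 and 2.1 for PCDHA12. Among beta genes they were 2.16 for PCDHB11, 1.57 for PCDHB10, 1.52 for PCDHB3 and 1.48 for PCDHB8. Nonclustered protocadherins gave 2.27 for PCDH18, 1.64 for PCDH9 and 1.55 for PCDH17. Desmosomal cadherins gave 1.69 for DSG2 and 0.94 for DSC2. Among CDH genes the values were 1.30 for CDH4, 1.06 for CDH10, 0.98 for CDH11, 0.85 for CDH13 and 0.73 for CDH2.

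Corrected for length and GC, 7 were still called, namely DSG2, PCDHA11, PCDHA12, PCDHAC2, PCDHB8, PCDHB11 and PCDHGB1. Each difference uses 1 untreated control library. In treated control library 3, PCDHGA1 read 0.5311 and PCDHGA3 2.721 scaled fragments and PCDHGB3 was listed at 0, and in that library PCDHA3 had a vanishing estimate.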

How the results depend on the processing

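Of 127 called member results, 127 kept direction and call with a pseudocount of 10, 122 with 0.1, 114 with no filter, 120 with TMM factors, 117 with upper-quartile factors, 96 with library series in the model, 94 in the first series and 122 with the replicate block on line. With the length and GC correction 73 kept both, 45 lost the call and 9 turned. Members called then numbered 25 in the control line, 27 between kinds of line under nutlin-3a and 7 for the difference of effects. With the replicate block added they numbered 23 under nutlin-3a and 11 for the difference. Over all genes the correction gave 5736 between kinds of line under nutlin-3a and 1993 for the difference, and 4803 and 2937 with the block. Untreated shARVCF against control called 3 genes, but 8 with a pseudocount of 0.1, 0 with 10, 1 in the first series and 0 with the correction, with or without the block. Values that turned under the correction, alike with the block, were CDH2 0.09, CDH8 1.15, DSC2 0.21 and PCDHA12 0.07 in the control line, CDH13 -0.28, CDH2 -0.02, CDH8 -0.34, DSC2 -0.28, PCDH7 -0.52 and PCDHB14 -0.09 between kinds of line under nutlin-3a, and CDH13 -0.12 and DSC2 -0.26 for the difference (all log2, some uncalled as deposited). CDH8 in the control line, -0.05 as deposited, also turned with TMM factors (0.02), upper-quartile factors, library series in the model and the first series alone (0.08 each), and without treated control library 3 (0.02). The cause was not tested.

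With 1 library left out, members called ranged from 15 to 22 in the shARVCF lines, 35 to 41 in the control line, 35 to 45 between kinds of line under nutlin-3a, 18 to 28 for the difference and 0 to 0 without drug. Over all genes these ranges were 5326 to 6613, 8185 to 8575, 7847 to 8734, 4147 to 4833 and 1 to 5. Of the 127 calls, 95 held in every such fit that could be made and 32 did not. Comparisons that need the only untreated control library could not be fitted without it. Depth limits members near 10 scaled fragments.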
